A study of Mus musculus with 9 samples.

Results

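The 10 genes of insulin signalling and glucose uptake described here were measured in brown adipose tissue of GHRH-KO mice and their littermates: Insr, Irs1, Irs2, Pik3r1, Akt2, Slc2a4, Slc2a1, Hk2, Foxo1 and Pck1. They were matched by exact symbol in the 9 expression tables, each of which lists 24356 gene symbols. All 10 were above 0 FPKM (a level of fragments scaled to gene length and library size) in all 9 libraries, so all 10 were among the 14675 genes tested.

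Insulin binds its receptor, a tyrosine kinase, which phosphorylates the docking proteins IRS1 and IRS2. These recruit phosphoinositide 3-kinase (PI3K), whose lipid product activates AKT, and AKT sends the glucose transporter GLUT4 to the cell surface and keeps the transcription factor FOXO1 out of the nucleus. Brown fat is a major site of insulin-stimulated and cold-stimulated glucose uptake, and it burns fuel for heat.

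The study asked how loss of growth hormone-releasing hormone (GHRH), the hypothalamic peptide that drives pituitary growth hormone release, alters the transcriptome of this thermogenic tissue. GHRH-KO mice carry the disrupted Ghrh gene in every cell, and WT mice are their littermates, with both genotypes on a mixed C57BL6 and 129SV background, with free access to water and chow. There were 2 KO female, 2 KO male, 3 WT female and 2 WT male libraries, each labelled with an animal number of its own. The age of the mice is not given in the sources used here.

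The summed FPKM per library was 380558 to 443569, and the relative depth estimated from low values was 0.914 to 1.14 of WT female 1. KO male 1 stood apart, with Spearman correlations across genes of 0.950 to 0.955 with the others against 0.963 to 0.976 among the other 8 libraries, and with a summed macrophage marker level of 552 FPKM against 42.6 to 164 elsewhere. All 10 brown adipocyte markers were above 0 in all 9 libraries. Their sum was 6393 to 8267 FPKM in libraries labelled KO and 6018 to 7827 FPKM in those labelled WT, which overlapped. By gene, 4 of the log2 differences, KO minus WT, were above 0 and 6 below, with a median of -0.18. At an unadjusted p below 0.05 in limma, 3 were higher in KO and 3 lower, against 5.99% and 14.2% of all tested genes. The 15 skeletal muscle markers summed to 6599, 2978, 13090 and 6764 FPKM in KO female 1, KO female 2, KO male 1 and KO male 2, against 500 to 2523 FPKM in WT, with no overlap (exact permutation test, two-sided, p = 0.00794, the smallest that 4 against 5 libraries allow). The targeted gene ran against the labels: the 5 libraries labelled WT listed Ghrh at 0, whereas KO female 1, KO female 2, KO male 1 and KO male 2 gave 0.846, 0.233, 0.799 and 0.470 FPKM. Igf1, whose transcription growth hormone raises, lay on the side of the labels: it was 0.713, 0.892, 2.46 and 1.28 FPKM in the same KO libraries and 2.13 to 8.80 FPKM in WT. KO male 1 was above WT male 1, and the log2 difference was -1.84 (SE 0.45, adjusted p 0.0661 in limma). Igf1 was picked after its values had been seen. Which part of Ghrh was deleted is not given in the sources used here, so every direction below is that of the labels, and KO and WT stand for the libraries labelled KO and WT.

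The promoters of Irs1, Irs2 and Pck1 are shown. Irs1 and Irs2 encode docking proteins, and with Pik3r1 they lay furthest apart between the genotypes, while Pck1 is under hormonal control. Of the 8 genes with a window, these 3 were also the only ones in which a searched motif was found. The windows of Pik3r1 are not shown. Each window holds the 250 bases before the RefSeq start site (GRCm38.p6), written 5′ to 3′ on the strand of the gene. They lie at chr1:82291440-82291689 on the minus strand for Irs1, at chr8:11008930-11009179 on the minus strand for Irs2, and at chr2:173152823-173153072 on the plus strand for Pck1. Capitals mark matches to CACGTG (an E-box), TGTTTTG (the core of the insulin response element bound by FOXO factors) and TTACGTCA (a form of the cAMP response element).
Irs1: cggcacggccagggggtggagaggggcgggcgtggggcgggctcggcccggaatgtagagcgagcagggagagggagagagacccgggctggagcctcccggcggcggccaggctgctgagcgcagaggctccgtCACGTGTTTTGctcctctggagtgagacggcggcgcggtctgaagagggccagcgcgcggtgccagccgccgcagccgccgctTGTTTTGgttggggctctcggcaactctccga
Irs2: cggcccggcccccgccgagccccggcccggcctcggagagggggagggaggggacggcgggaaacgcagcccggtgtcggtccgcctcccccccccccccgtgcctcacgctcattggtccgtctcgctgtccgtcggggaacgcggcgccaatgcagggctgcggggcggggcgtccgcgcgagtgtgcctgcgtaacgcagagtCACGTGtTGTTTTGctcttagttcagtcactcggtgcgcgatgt
Pck1: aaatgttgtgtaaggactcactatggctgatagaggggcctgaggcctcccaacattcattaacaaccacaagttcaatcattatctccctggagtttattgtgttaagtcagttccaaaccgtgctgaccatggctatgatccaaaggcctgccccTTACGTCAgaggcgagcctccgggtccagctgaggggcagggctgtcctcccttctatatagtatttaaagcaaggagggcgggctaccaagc
In Irs1, CACGTG starts 115 bases before the start site and shares its last bases with a TGTTTTG that starts at 111, and another TGTTTTG starts at 32. In Irs2, CACGTG starts 44 bases before the start site and TGTTTTG follows at 37. In Pck1, TTACGTCA starts 93 bases before the start site. Over both strands of 32851 such windows, CACGTG was in 6.02%, TGTTTTG in 5.56%, both of these in 0.295%, and TTACGTCA in 0.447%. TGTTTAC (3.17% of windows) and TGACGTCA (1.55% of windows) were also searched, and none of the 5 motifs was in the windows of Akt2, Foxo1, Hk2, Pik3r1 or Slc2a1. The motifs were chosen after the windows had been read, and 8 of the 10 genes had a window. A match of letters is a description and not a binding site.

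None of the 10 genes passed the test between the genotypes, and 3 of them, Irs2, Irs1 and Pik3r1, lay lowest in KO relative to WT. With the sexes averaged, limma called 0 of 10 genes at an adjusted p below 0.05, where it called 3.6% of all tested genes. At an unadjusted p below 0.05 it counted 3 of 10, all lower in KO, against 20.2% of all genes in either direction and 14.2% that were lower. The ordinary linear model of the study, with females as the reference, counted 0 of 10 genes at p below 0.01, against 3.43% of all genes. Its genotype term is then the difference among females alone. In the same linear model the lowest p of the 10 was 0.0154 among males and 0.0116 with the sexes averaged, both for Pik3r1. All 10 estimates were below 0, with a median log2 difference of -0.18, while 62.5% of all tested genes were below 0 and their median was -0.07. The estimates of Slc2a1, Hk2 and Foxo1 turned positive when each library was centred on its median. In females, limma called 0 of 10 genes (0.0204% of all genes), with 1, Irs2, lower at an unadjusted p below 0.05 (12.7% of all genes in either direction and 7.73% lower). In males it called 0 of 10 (0.0136% of all genes), with 5 lower at an unadjusted p below 0.05 (16.6% of all genes in either direction and 11.7% lower).

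**Figure D1:**
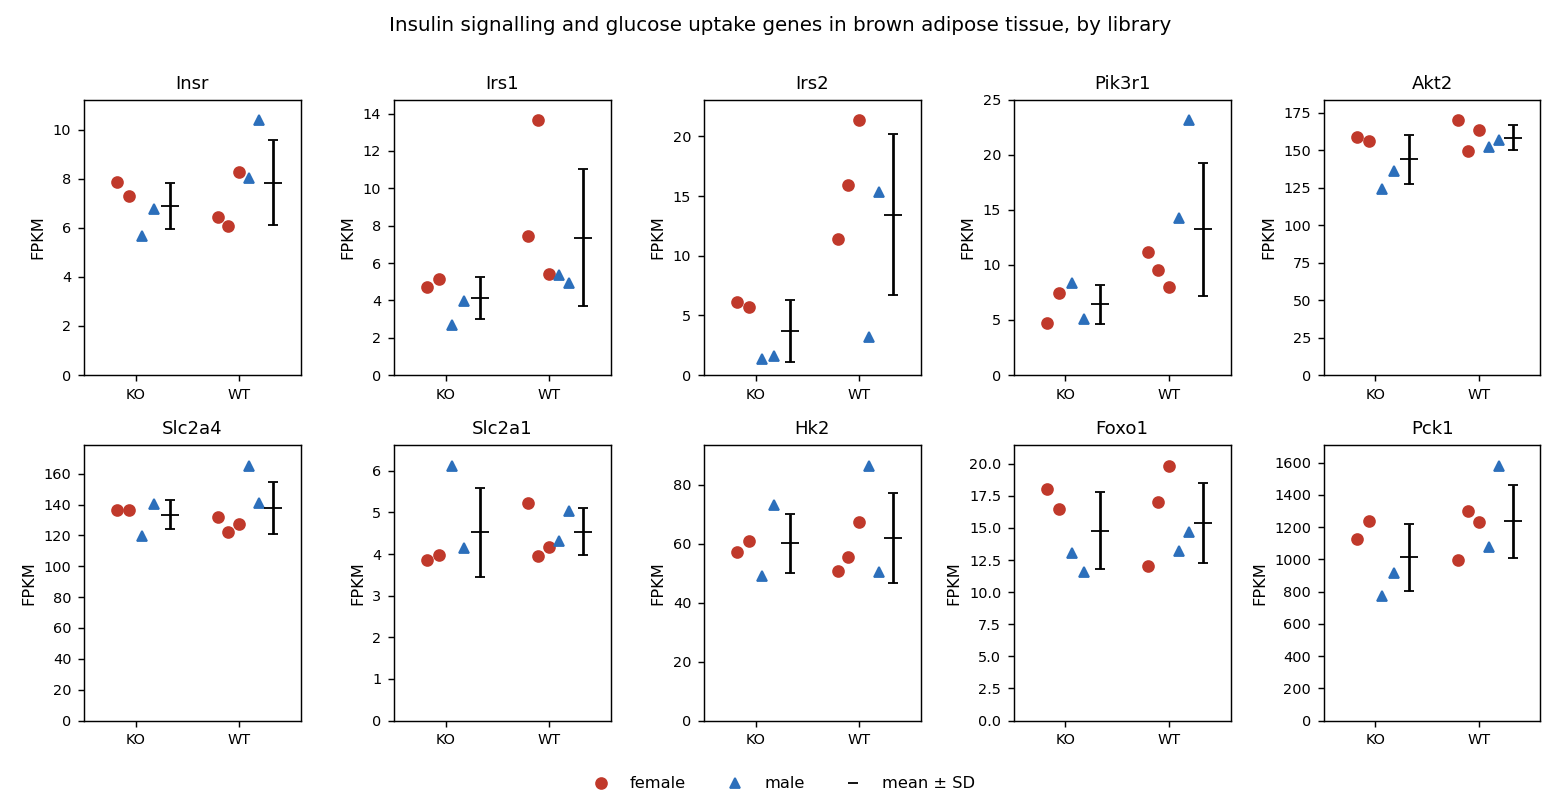
FPKM of the 10 genes in each of the 9 libraries, with KO and WT on the horizontal axis, females as circles, males as triangles, and the mean ± SD of each genotype as a bar. The KO points of Irs2 sit between 1.36 and 6.15 FPKM with 1 WT point, a male at 3.18 FPKM, among them, while the points of Slc2a4, Hk2 and Foxo1 lie side by side.

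Irs2, a docking protein of the insulin receptor whose transcription FOXO1 raises when insulin is low, showed the largest difference among the 10 genes. Its level was 6.15 and 5.66 FPKM in the females labelled KO, with KO males at 1.36 and 1.59 FPKM. It was 11.4, 15.9 and 21.4 FPKM in WT females and 3.18 and 15.4 FPKM in WT males. The KO libraries were the 4 lowest but for WT male 1, which lay between KO males and KO females, so the genotypes overlapped. The mean was 3.69 ± 2.57 FPKM (SD, n = 4) in KO and 13.4 ± 6.75 FPKM (SD, n = 5) in WT, so that KO stood at 27.4% of the WT mean. The log2 difference was -1.83 (SE 0.43, 95% interval -2.83 to -0.83), with an adjusted p of 0.0609 in limma. The exact permutation test, two-sided, which did not take sex into account, gave p = 0.0397. The estimate was -1.41 in females and -2.25 in males. The WT males moved the estimate most in opposite directions: without WT male 1 the log2 difference was -2.40 with an adjusted p of 0.00614 in limma, and without WT male 2 it was -1.26 with an adjusted p of 0.0681. Without KO male 1 it was -1.78 with an adjusted p of 0.0866 in limma. Over 17 alternatives the adjusted p ranged from 0.00614 to 0.188. As in any bulk tissue, fewer cells that use a gene and less RNA per cell cannot be told apart. Irs2 lies at chr8:10984681-11008458 on the minus strand, and 1.801% of the 50-base stretches of its transcripts also occur in 9530052E02Rik on the other strand.

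Irs1, the other main docking protein of the receptor, was lower in KO as well, by less. Its level was 4.73 and 5.16 FPKM in the females labelled KO, with KO males at 2.65 and 3.95 FPKM. It was 7.45, 13.7 and 5.40 FPKM in WT females and 5.36 and 4.92 FPKM in WT males. Only KO female 2 and WT male 2 overlapped, and WT female 2 was the high value of its group. The mean was 4.13 ± 1.10 FPKM (SD, n = 4) in KO and 7.35 ± 3.65 FPKM (SD, n = 5) in WT. KO minus WT on the log2 scale was -0.70 (SE 0.27, 95% interval -1.32 to -0.07), with an adjusted p of 0.197 in limma. The exact permutation test gave p = 0.0476, and the difference was -0.55 (limma, adjusted p 0.262) without KO male 1. Irs1 lies at chr1:82233101-82291416 on the minus strand, and 30.5% of its 50-base stretches also occur in Gm9747 on the other strand, which is not among the symbols of the tables. Whether counting used the strand is not stated, so reads of this pair cannot be told apart.

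The summed level of Irs1 and Irs2 was 4.02 to 10.9 FPKM in KO and 8.53 to 29.6 FPKM in WT. The ratio of Irs2 to Irs1 was 0.402 to 1.30 in KO and 0.593 to 3.95 in WT, so both KO males and WT male 1 held more Irs1 than Irs2 per unit of length, and 3 of the 4 highest ratios were in WT. Insr, which encodes the receptor itself, was 7.87 and 7.30 FPKM in the females labelled KO, with KO males at 5.66 and 6.78 FPKM. It was 6.46, 6.07 and 8.29 FPKM in WT females and 8.04 and 10.4 FPKM in WT males. The genotypes overlapped in females, whereas both KO males were below both WT males. On the log2 scale the difference was 0.14 in females (95% interval -0.28 to 0.56) and -0.56 in males (-1.02 to -0.10), with an adjusted p of 0.207 in males in limma. The genotype by sex interaction of Insr was -0.70 with an unadjusted p of 0.0313 and an adjusted p of 0.688 in limma, and averaged over the sexes the difference was -0.21 (SE 0.13, adjusted p 0.443).

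Pik3r1 encodes p85α, the regulatory subunit through which PI3K docks on IRS proteins, and it was the second gene with a wide gap. Its level was 4.71 and 7.47 FPKM in the females labelled KO, with KO males at 8.37 and 5.13 FPKM. It was 11.2, 9.50 and 7.98 FPKM in WT females and 14.3 and 23.2 FPKM in WT males. KO male 1 was above WT female 3, and every other KO library was below every WT library. The mean was 6.42 ± 1.78 FPKM (SD, n = 4) in KO and 13.2 ± 6.03 FPKM (SD, n = 5) in WT, so that KO stood at 48.5% of the WT mean. The log2 difference was -1.07 (SE 0.23, 95% interval -1.61 to -0.53), and its adjusted p of 0.0505 in limma was just short of the threshold. The exact permutation test gave p = 0.0317. The adjusted p ranged from 0.0364 to 0.178 over 17 alternatives and was below 0.05 in 5 of them: without KO male 1 (0.0441), without WT male 1 (0.0364), with a minimum mean FPKM of 1 (0.0422), with median centring (0.0496) and with quantile normalization (0.0457). The estimate was -0.67 in females and -1.47 in males. The ratio of Pik3r1 to Pik3r2, the gene of the p85β subunit, was 0.580 to 1.12 in KO and 1.04 to 3.06 in WT. Pik3r1 lies at chr13:101680563-101768217 on the minus strand.

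Akt2, the AKT isoform needed for insulin-stimulated glucose uptake, had a KO mean at 90.8% of the WT mean. It was 159 and 156 FPKM for KO females, 124 and 136 FPKM for KO males, 170, 150 and 163 FPKM for WT females, and 152 and 157 FPKM for WT males. Both KO males were below every other library. KO minus WT on the log2 scale was -0.14 (SE 0.06, 95% interval -0.29 to 0.01, adjusted p 0.275 in limma). The pseudogene Akt2-ps shares 9.76% of the 50-base stretches of Akt2.

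Glucose enters brown adipocytes through GLUT4 and GLUT1 and is trapped by hexokinase, and none of the 3 genes of these steps separated the genotypes. Slc2a4, which encodes GLUT4, was 136 and 136 FPKM for KO females, 120 and 141 FPKM for KO males, 132, 122 and 127 FPKM for WT females, and 165 and 141 FPKM for WT males. KO females were above every WT female and KO males were below both WT males. On the log2 scale the difference was 0.10 in females and -0.24 in males, with an interaction of -0.34 (unadjusted p 0.0596, adjusted p 0.709 in limma), and -0.07 over both (95% interval -0.24 to 0.11, adjusted p 0.720). Slc2a4 made up 81.9% to 87.6% of the summed level of the listed Slc2a genes in KO and 84.3% to 87.7% in WT. That sum held Slc2a1, Slc2a2, Slc2a3, Slc2a4, Slc2a5, Slc2a8, Slc2a9, Slc2a10 and Slc2a12. Slc2a1, which encodes GLUT1, was 3.85 and 3.97 FPKM for KO females, 6.12 and 4.14 FPKM for KO males, 5.23, 3.96 and 4.17 FPKM for WT females, and 4.30 and 5.04 FPKM for WT males. KO male 1 was the highest of the 9 libraries. The log2 difference was -0.03 (95% interval -0.38 to 0.32, adjusted p 0.945 in limma), and the sign changed with the scaling. The level of Slc2a4 was 19.5 to 35.5 times that of Slc2a1 in KO and 25.2 to 38.4 times in WT.

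Hk2, which encodes the hexokinase that phosphorylates glucose in muscle and fat, was 57.3 and 60.9 FPKM in the females labelled KO, with KO males at 49.2 and 73.2 FPKM. It was 50.8, 55.4 and 67.5 FPKM in WT females and 86.6 and 50.5 FPKM in WT males. The genotypes interleaved, with WT male 1 the highest and KO male 1 the lowest. KO minus WT on the log2 scale was -0.05 (95% interval -0.49 to 0.39, adjusted p 0.933 in limma), and its sign changed with median centring. Hk2 made up 83.0% to 90.6% of the summed hexokinase level in KO and 86.6% to 93.6% in WT. Skeletal muscle also expresses Slc2a4 and Hk2, and the muscle markers were higher in every KO library than in any WT library, at a ratio of medians of 3.98, and their part in these values was not tested.

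Foxo1 encodes the transcription factor that AKT holds back, and Pck1 encodes the cytosolic phosphoenolpyruvate carboxykinase that supplies glycerol for fat storage in adipocytes and is repressed by insulin. Foxo1 was 18.01 and 16.5 FPKM for KO females, 13.1 and 11.6 FPKM for KO males, 12.1, 17.0 and 19.8 FPKM for WT females, and 13.2 and 14.7 FPKM for WT males. Its genotypes overlapped, with a log2 difference of -0.04 (95% interval -0.38 to 0.31, adjusted p 0.941 in limma) whose sign changed with median centring. Pck1, the most abundant of the 10, was 1125 and 1237 FPKM in the females labelled KO, with KO males at 771 and 917 FPKM. It was 995, 1301 and 1230 FPKM in WT females and 1078 and 1581 FPKM in WT males. KO females lay within the WT female range, and both KO males were below both WT males. On the log2 scale the difference was 0.02 in females and -0.64 in males (95% interval -1.12 to -0.15, adjusted p 0.181 in limma), and the interaction was -0.65 (unadjusted p 0.0514, adjusted p 0.707). Over both sexes it was -0.31 (SE 0.14, adjusted p 0.275), with an exact permutation test p of 0.167. Pck1 exceeded the mitochondrial isoform Pck2 by 298 to 540 times in KO and 220 to 470 times in WT.

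**Figure D2:**
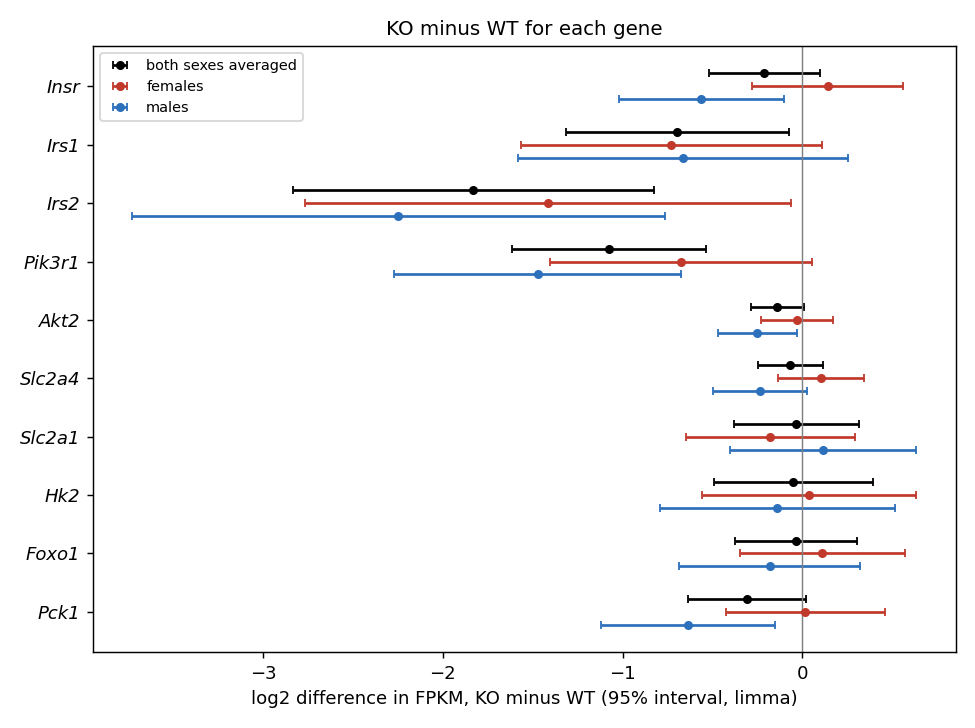
Log2 difference in FPKM, KO minus WT, for the 10 genes on the vertical axis, with 95% limma intervals for the sexes averaged, females and males. The averaged intervals of Irs1, Irs2 and Pik3r1 lie below 0, those of the other 7 cross it, and in males those of Insr, Akt2 and Pck1 lie below 0 too.

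No gene separated the genotypes completely: 0 of 10 had every KO library below every WT library, against 6.04% of all tested genes, and 0 of 10 had every KO library above every WT library, against 3.03%. Compared within each sex, Irs1, Irs2 and Pik3r1 had every KO library below every WT library of the same sex, in both sexes, which is 3 of 10 against 9.66% of all genes, and 0 of 10 lay above in both sexes, against 4.27%. This second count was added after the values had been seen. Of the other genes, Insr, Akt2, Foxo1 and Pck1 had both KO males below both WT males but overlapped in females. Slc2a4 also had both KO males below both WT males, but its KO females were above every WT female. The share of all tested genes with both KO males below both WT males is not given here. The interaction was called for 0 of 10 genes by limma (0% of all genes), with 1 at an unadjusted p below 0.05 (7.01% of all genes), so the larger male estimates were not shown to differ from those in females.

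The level of Irs2 was lower in males of both genotypes on average, without passing the test. It was 16.2 ± 4.98 FPKM (SD, n = 3) in WT females and 9.26 ± 8.61 FPKM (SD, n = 2) in WT males, and 5.90 ± 0.342 FPKM (SD, n = 2) for females labelled KO and 1.48 ± 0.160 FPKM (SD, n = 2) in KO males. Averaged over genotypes, its log2 difference of male minus female was -1.59, with an unadjusted p of 0.00674 and an adjusted p of 0.288 in limma. Of the 10 genes, 4 (Irs1, Irs2, Pik3r1 and Akt2) had an unadjusted p below 0.05 for sex, against 10.4% of all genes, and limma called 0 of 10 (0.0136% of all genes). Pik3r1 was the 1 of these with a positive estimate, at 0.54. This comparison was chosen after values had been seen.

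By median FPKM over the 9 libraries, a scale corrected for length, the order was Pck1 (1125), Akt2 (156), Slc2a4 (136), Hk2 (57.3), Foxo1 (14.7), Pik3r1 (8.37), Insr (7.30), Irs2 (6.15), Irs1 (5.16) and Slc2a1 (4.17). Pck1 exceeded Akt2, Slc2a4 exceeded Hk2 and Hk2 exceeded Foxo1 in all 9 libraries. Akt2 exceeded Slc2a4 and Foxo1 exceeded Pik3r1 in 7 of 9. The remaining neighbours kept their order in 5 or 6 of 9, and their ranges overlapped. Differences between neighbours were not tested. The RNA levels of Irs1, Irs2, Pik3r1 and Insr were thus far below those of Akt2 and Slc2a4, and these data hold no protein levels. The remaining genes lie at chr8:3122061-3279617 on the minus strand (Insr), chr7:27591552-27640826 on the plus strand (Akt2), chr11:69942539-69948188 on the minus strand (Slc2a4), chr4:119108711-119137983 on the plus strand (Slc2a1), chr6:82725025-82774454 on the minus strand (Hk2), chr3:52268336-52353221 on the plus strand (Foxo1) and chr2:173153048-173159273 on the plus strand (Pck1). All positions are on GRCm38 (mm10), and all 10 genes are annotated as protein coding. Foxo1 overlaps the antisense gene Gm20402, and 6.80% of its 50-base stretches occur in another gene.

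Among 105 other genes of the pathway, of which 102 were tested, 7 rose and 1 fell in KO (limma, adjusted p below 0.05), against 1.43% and 2.17% of all tested genes. The median log2 difference of the 102 genes was -0.01, beside -0.07 over all genes, and Slc2a2, G6pc and Igfbp1 were listed at 0 in at least 1 library and were not tested. At an unadjusted p below 0.05, 22 were higher and 12 lower, against 5.99% and 14.2% of all genes. The share of all tested genes called when a library was left out is not given here. The count of 8 was unstable to the choice of libraries. It was 6 without KO male 1 (Fbxo32, Tpi1 and Ugp2 were then not called, with adjusted p of 0.0521, 0.0594 and 0.0647 in limma), 20 without WT male 1, 15 without KO male 2, 1 without WT female 3, and 0 without KO female 1, KO female 2, WT female 1, WT female 2 or WT male 2.

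Among 15 receptor adaptors and inhibitors, 0 were called (3.6% of all genes). In the same group 2 were lower at an unadjusted p below 0.05 (14.2% of all genes). The lowest p belonged to Grb14, which encodes an adaptor that inhibits the insulin receptor kinase, at 13.9 to 20.1 FPKM in KO and 21.4 to 38.8 FPKM in WT, with no overlap (log2 difference -0.80, SE 0.19, adjusted p 0.0601 in limma). It was called without WT male 1 (log2 difference -1.013, adjusted p 0.0121). Among 14 other genes of PI3K and AKT signalling, Trib3, a pseudokinase that binds AKT, was the 1 gene called (3.6% of all genes). It rose, as did 1.43% of all genes. Trib3 was 5.22, 4.12, 4.31 and 3.90 FPKM in KO female 1, KO female 2, KO male 1 and KO male 2, against 1.40 to 2.64 FPKM in WT. Every KO library was above every WT library, with a log2 difference of 1.10 (SE 0.18, adjusted p 0.0347 in limma). Of 14 genes of GLUT4 trafficking 0 were called (3.6% of all genes) and 12 estimates were below 0 (62.5% of all genes), with the lowest p for Sort1, the sorting receptor sortilin of GLUT4 vesicles (log2 difference -0.31, SE 0.07, adjusted p 0.0630 in limma). Of 10 tested genes of other glucose transporters and hexokinases, with the transporter regulator Txnip among them, 0 were called (3.6% of all genes). Their lowest p belonged to Slc2a12, the transporter GLUT12 (log2 difference 0.39, SE 0.15, adjusted p 0.195 in limma).

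The remaining calls were in glycogen metabolism, the FOXO1 targets and glycolysis. Among 16 glycogen genes, 2 were called higher and 1 lower, against 1.43% and 2.17% of all genes. Ugp2, which makes UDP-glucose, and Pgm2, a phosphoglucomutase, rose by 0.47 (SE 0.10, adjusted p 0.0492) and 0.42 (SE 0.07, adjusted p 0.0318) on the log2 scale in limma. Pygb, the brain-type glycogen phosphorylase, was 13.2 to 16.3 FPKM in KO and 24.1 to 32.0 FPKM in WT with no overlap, and it fell by 0.94 on the log2 scale (SE 0.11, adjusted p 0.0222 in limma). The phosphorylase genes Pygm and Pygl had estimates above 0 and were not called (2.18 and 0.38, adjusted p 0.0651 and 0.440 in limma). Pygm was 50.9 to 258 FPKM in KO and 10.1 to 49.5 FPKM in WT. Pygl was 158 to 312 FPKM in KO and 108 to 288 FPKM in WT, which overlapped. Of 10 tested Foxo factors and FOXO1 targets, Fbxo32, the ubiquitin ligase atrogin-1 of muscle wasting, was the 1 gene called, against 3.6% of all genes. It was 3.31 to 6.19 FPKM in KO and 1.57 to 2.92 FPKM in WT, a log2 difference of 1.15 (SE 0.21, adjusted p 0.0370 in limma). Of 23 glycolysis and gluconeogenesis genes, 3 rose and 0 fell, against 1.43% and 2.17% of all genes, and 17 estimates were above 0, against 5502 of 14675 over all genes. Their median was 0.38, beside -0.07 over all genes. The largest of the estimates were those of Pgam2 (2.38), Eno3 (2.21) and Fbp2 (1.16), which were not called (adjusted p 0.0584, 0.0609 and 0.0667 in limma). Pfkp (21.8 to 25.7 FPKM in KO, 12.9 to 18.6 FPKM in WT), a phosphofructokinase, rose by 0.60 on the log2 scale (SE 0.08, adjusted p 0.0285 in limma). Gapdh (350 to 478 FPKM in KO, 192 to 333 FPKM in WT), the dehydrogenase of glyceraldehyde 3-phosphate, rose by 0.76 (SE 0.12, adjusted p 0.0320). Tpi1, triosephosphate isomerase, rose by 0.38 (SE 0.08, adjusted p 0.0454). The groups of Pfkp, Gapdh and Tpi1 did not overlap.

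**Figure D3:**
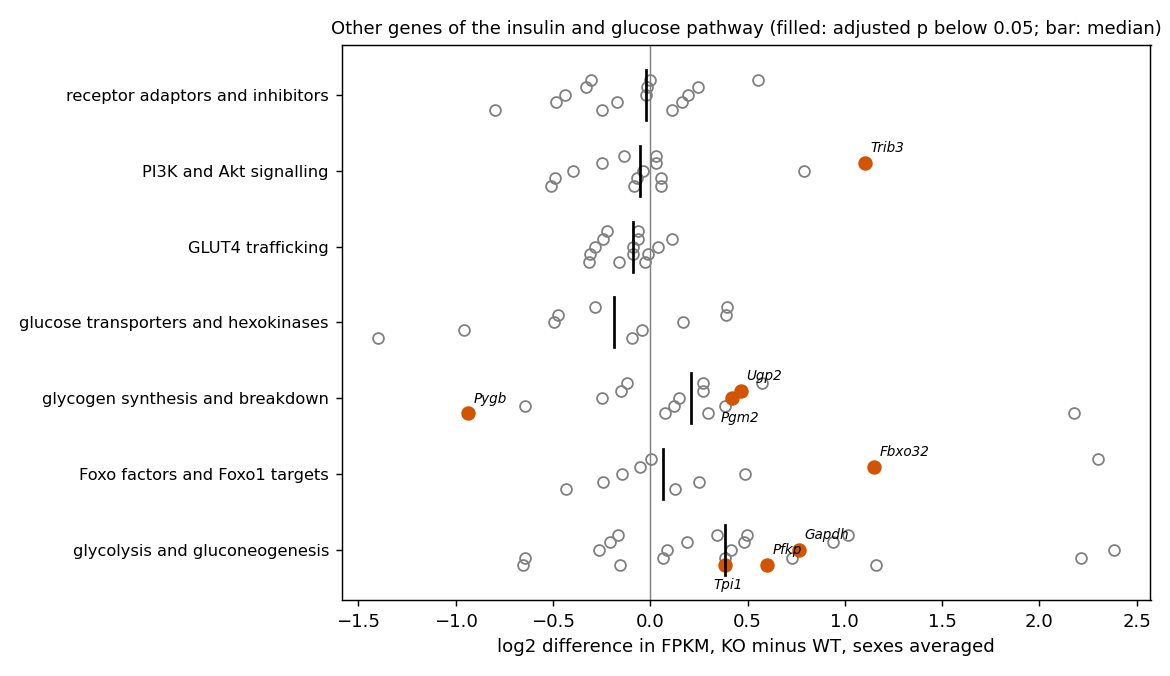
Log2 difference in FPKM, KO minus WT with sexes averaged, of the 102 other pathway genes tested, by role on the vertical axis, with the median of each role as a bar and the 8 genes with an adjusted p below 0.05 filled and named. The glycolysis row has its median at 0.38, the highest of the 7 roles.

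Glycolysis genes and Fbxo32 are also active in skeletal muscle, whose markers moved the same way: all 15 muscle markers had estimates above 0, 3 of 15 were called higher (Acta1, Myh1 and Mylpf), against 1.43% of all genes, and their summed level did not overlap between the genotypes. Among the KO libraries, Pgam2 and Eno3 were highest in KO male 1 and lowest in KO female 2, as was the muscle marker sum. Fbp2 was highest in KO female 2. The part of muscle RNA in the glycolysis calls and in the estimates of Pgam2, Eno3 and Fbp2 was not tested. The summed level of 6 pan-adipocyte markers was 10526 to 15080 FPKM in KO and 14272 to 17887 FPKM in WT (exact permutation test p = 0.0397), and that of the 9 listed white adipocyte markers, of which Hoxc9 and Wt1 were at 0 in some libraries, was 39.5 to 95.9 FPKM in KO and 86.6 to 344 FPKM in WT (p = 0.127 by the same exact permutation test). Both sums overlapped between the genotypes. By gene, 5 of 6 pan-adipocyte markers and all 7 tested white adipocyte markers had estimates below 0, with medians of -0.27 and -1.06, and Cidec and Lep were called lower in limma, against 2.17% of all genes. All 7 fibroblast and progenitor markers were below 0, with a median of -0.67 and 3 called lower (Col1a1, Col3a1 and Lum), and their sum was 131 to 216 FPKM in KO and 161 to 298 FPKM in WT, which overlapped. All 6 endothelial and all 8 macrophage markers had estimates below 0 as well, with medians of -0.33 and -0.41, and 0 of either were called. In males alone the macrophage median was 0.26. The part of these cell types in the lower levels of Irs1, Irs2 and Pik3r1 was not tested.

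**Figure D4:**
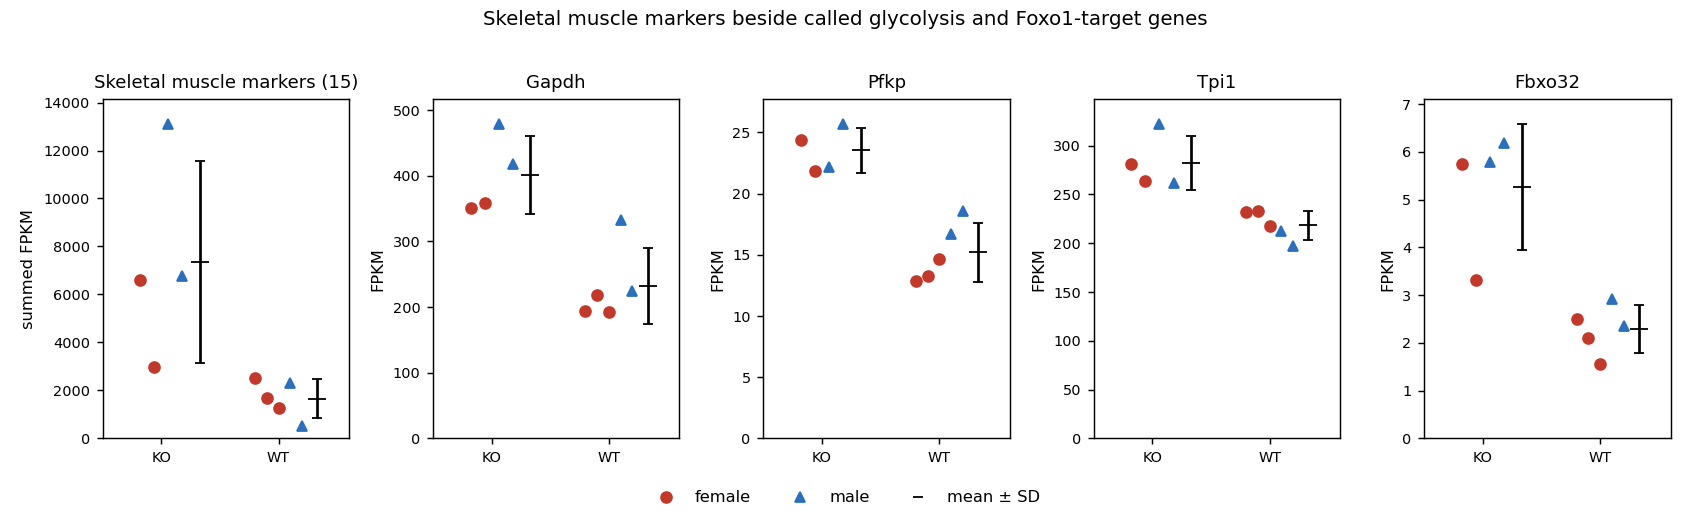
Summed FPKM of the 15 skeletal muscle markers and FPKM of Gapdh, Pfkp, Tpi1 and Fbxo32 in each library, with genotype on the horizontal axis, females as circles, males as triangles, and the mean ± SD as bars. In all 5 panels every KO point lies above every WT point.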

How the data were processed

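RNA sequencing of brown adipose tissue was analysed in 9 libraries of 4 groups. Each library has 1 table of FPKM by gene symbol, calculated and deposited by the authors. Per the submitters' notes, reads were processed with bcl2fastq 1.8.4, TopHat 2.0.11 and Bowtie on mm10, and the annotation is not given in the sources used here. Fragment counts were not used here, so depth is known only as a ratio from values of 0.001 to 0.15 FPKM. Log2 FPKM of the 14675 genes above 0 in all libraries were fitted in limma 3.58.1 (R 4.3.3) with a mean per genotype and sex and a mean-variance trend. P-values were adjusted by Benjamini-Hochberg over all 14675 genes. The study's linear model (p below 0.01) and exact permutation tests over the 126 splits of 9 libraries (smallest p 0.00794) were also run. The permutation tests did not take sex into account. The scripts were tested on simulated data. P-values measure the spread between animals. Alternatives changed the pseudocount (0.1 or 1 FPKM), filter, scaling, trend, model and libraries.

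The members and lists were chosen with earlier results of these data known. Named are all 10 genes, other pathway genes with an adjusted p below 0.05, the gene with the lowest p of each role, Ghrh, and marker lists by their sums. The largest glycolysis estimates were named after the values had been seen. Gene positions come from GENCODE M21. The serum metabolomics were left out. Tables and figures were made in Python 3.11.15 (scipy 1.17.1, numpy 2.4.6, pandas 2.3.3, matplotlib 3.10.9).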

Additional observations from a re-analysis of the deposited data

Results flagged for a closer look

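Slc2a1, the gene of GLUT1, was 6.12 FPKM in KO male 1, far from the other 3 KO libraries at 3.85 to 4.14 FPKM. The gap to its neighbour was 0.840 of the range of the group, above Dixon's 95% critical value for 4 libraries. In all, 20 groups (10 genes in KO and in WT) were examined, and chance marks about 1 in 20 such groups. KO male 1 is also the library with the highest macrophage marker sum, 552 FPKM, and their relation was not tested. Without it, the log2 difference of Slc2a1, KO minus WT, was -0.17 with an adjusted p of 0.437 in limma.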

How the results depend on the processing

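The number of the 10 genes called over both sexes, 0 with the settings of the report, was 1 (Pik3r1) with a minimum mean FPKM of 1, with median centring and with quantile normalization, and 0 to 2 when each library was left out in turn (2, Irs2 and Pik3r1, without WT male 1). Leaving out libraries gave 0 to 1 in males and 0 to 1 in the linear model. The 8 other pathway genes called became 3 without the zero filter, 13 with the minimum mean, 3 with median centring, 0 without the mean-variance trend, and 0 to 20 when libraries were left out. The shares of all tested genes called under these alternatives are not given here. In limma, median centring reversed Slc2a1 (0.025), Hk2 (0.0079) and Foxo1 (0.023), and quantile normalization reversed Slc2a1 (0.024) and Foxo1 (0.011). Leaving out libraries moved Slc2a1 from -0.17 to 0.11, Hk2 from -0.24 to 0.14 and Foxo1 from -0.14 to 0.043.

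In the exact permutation test, Irs1 lost p below 0.05 with a pseudocount of 1 (-0.64, p = 0.0556), median centring (-0.71, p = 0.159) and quantile normalization (-0.75, p = 0.111), and Irs2 with median centring (-1.89, p = 0.0556) and quantile normalization (-1.97, p = 0.0556). Over 13 alternatives, most of them with a library left out, p was below 0.05 in 2 for Irs1 (0.0286 to 0.159), 3 for Irs2 (0.0286 to 0.107) and 6 for Pik3r1 (0.0238 to 0.0714). When libraries were left out, the log2 difference was -0.89 to -0.51 for Irs1, -2.41 to -1.58 for Irs2, -1.14 to -0.75 for Pik3r1, -0.081 to 0.028 for Slc2a4, -0.18 to 0.043 for Slc2a1, -0.13 to 0.10 for Hk2 and -0.16 to 0.055 for Foxo1. Median centring reversed Slc2a4 (0.018), Slc2a1 (0.032), Hk2 (0.028) and Foxo1 (0.0030), and quantile normalization Slc2a1 (0.030). The cause was not tested. Comparing within each sex, chosen after seeing the data, raised the count of genes without overlap from 0 to 3. Groups of 2 or 3 libraries and an unknown fragment count limit the precision. No paired analysis was possible because the labels give animal numbers and no numbers shared between groups.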
